A study of Mus musculus with 6 samples.

Results

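The 8 genes described here encode enzymes and a sterol sensor of cholesterol synthesis (Hmgcs1, Idi1, Fdps, Fdft1, Sqle, Lss, Dhcr7 and Insig1), and their expression was measured by RNAseq in mammary tumors of NeuT/ATTAC mice. They were taken as the rows of the deposited tables whose Ensembl gene ID maps to one of these symbols in the GRCm38 annotation, which gave 8 of 54532 gene IDs, with 1 ID per symbol. Although the set was named for synthesis and uptake, none of the 8 encodes a lipoprotein receptor, so that uptake genes were followed in a separate list. Profiles of 3 tumors labelled IgG and 3 labelled anti-PD-1 were compared. All 6 came from NeuT/ATTAC mice, in which the MMTV promoter drives the Erbb2 transgene NeuT in the mammary gland and FAT-ATTAC makes adipose tissue sensitive to AP20187. The FAT-ATTAC line had a C57BL/6 background and was crossed into FVB before it was bred with MMTV-NeuT. Both groups, controls included, received 0.4 mg/kg AP20187 by i.p. injection from 6 weeks of age to induce fibrosis, and from 8 weeks of age 100 µg of either an anti-PD-1 mAb or an IgG of the matching isotype. The study describes its RNA as pooled within each group, whereas 3 separate profiles per group were deposited, and whether each came from a different animal is not stated. The p-values then measure only the spread between these profiles, which may in part be technical.

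Cells build cholesterol from acetyl-CoA by way of mevalonate, isoprenoid diphosphates, squalene and lanosterol. The genes of this pathway are switched on together by the transcription factor SREBP, which its escort protein Scap carries out of the endoplasmic reticulum when sterols run low. Insig proteins hold Scap back when sterols are plentiful, and Insig1 is itself a target of SREBP. The lactating mammary gland makes sterols and fatty acids for milk fat.

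Upstream sequences from RefSeq (GRCm38.p6) were matched for 5 of the 8 members, Hmgcs1, Idi1, Lss, Dhcr7 and Insig1. No entry was matched for Sqle, Fdps and Fdft1. The 250 bases before each RefSeq start were searched on both strands. These starts differ from the gene starts of GENCODE release M21, which are the coordinates given with each gene, by -28 bases for Hmgcs1, 105 for Idi1, 17 for Lss and 49 for Insig1 (RefSeq minus GENCODE). For 3 members with a single RefSeq start, the bases before both starts are shown because the pathway is known to be regulated in common through such upstream elements. They are chr13:119690101-119690350 for Hmgcs1, chr10:76531355-76531587 for Lss and chr5:28071162-28071362 for Insig1, 5′ to 3′ on the plus strand, on which all 3 genes lie. Capitals mark a sterol response element (TCACNCCAC, or GTGGNGTGA on the other strand) or a CCAAT box (CCAAT, or ATTGG on the other strand, the site of the SREBP partner NF-Y).
Hmgcs1: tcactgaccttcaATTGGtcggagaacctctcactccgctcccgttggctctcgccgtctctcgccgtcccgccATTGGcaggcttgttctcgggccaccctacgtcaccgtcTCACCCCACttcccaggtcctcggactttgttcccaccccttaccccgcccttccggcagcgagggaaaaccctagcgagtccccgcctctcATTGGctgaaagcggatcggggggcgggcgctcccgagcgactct
Lss: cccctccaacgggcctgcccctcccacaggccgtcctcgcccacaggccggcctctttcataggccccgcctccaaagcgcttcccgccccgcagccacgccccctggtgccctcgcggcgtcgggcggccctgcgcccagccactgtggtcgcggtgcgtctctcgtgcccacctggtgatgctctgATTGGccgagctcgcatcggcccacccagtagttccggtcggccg
Insig1: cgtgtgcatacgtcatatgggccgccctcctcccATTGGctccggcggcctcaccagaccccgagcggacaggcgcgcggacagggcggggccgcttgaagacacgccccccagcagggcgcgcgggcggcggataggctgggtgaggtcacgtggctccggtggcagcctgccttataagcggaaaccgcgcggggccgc

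Hmgcs1 held the sterol response element, 137 bases before its RefSeq start, and also 3 CCAAT boxes. Among all 32851 windows of this length in the table, 1.05% held that element on either strand. Lss held 1 CCAAT box at 62 bases and Insig1 held 1 at 216 bases before the RefSeq start. Idi1 held 2, at 45 and 14 bases, which lie inside the gene by its GENCODE start. Dhcr7 has 3 RefSeq starts, and only the window of the third held CCAAT. By window, a CCAAT box was present in 5 of 7 windows of the members, in 11 of 13 of the other cholesterol synthesis enzymes, in 8 of 20 of the SREBP regulators, in 8 of 14 of the uptake and trafficking genes and in 5 of 13 of the efflux genes, against 33.8% of all windows. The GC box (GGGCGG, or CCGCCC on the other strand) was present in 6 of the 7 windows of the members, in 11 of 13, 14 of 20, 6 of 14 and 3 of 13 windows of the same lists in the same order, against 32.7% of all windows. A match of letters is a description and does not show that a factor binds there.

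Expression is given as FPKM, in which fragments are scaled by exon length and by library size. The FPKM gave whole reads with the merged length of all exons of a gene. Levels can therefore be compared between genes only roughly, since a transcript can be shorter than that length. Sqle had a mean of 17.6 ± 4.74 FPKM (SD, n = 6) and Dhcr7 one of 15.6 ± 3.61, and their order could not be told beyond the spread, since Sqle exceeded Dhcr7 in 4 of 6 tumors. Dhcr7 was above Hmgcs1 in all 6. Hmgcs1 (11.4 ± 1.25), Insig1 (10.9 ± 3.43) and Fdft1 (10.5 ± 2.54) lay close together, and their order was not clear either, since Hmgcs1 exceeded Insig1 in 3 of 6 tumors and Insig1 exceeded Fdft1 in 2 of 6. Idi1 (6.22 ± 1.86) was above Lss (4.78 ± 1.01) in all 6 tumors. This order rests on the lengths used, 3505 bases for Idi1 and 10787 for Lss. Lss had more reads, 783 to 1614 against 324 to 723. Fdps was far below the rest at 0.485 ± 0.118 FPKM. From 324 to 3081 reads lay behind each value of the other members, and from 34 to 70 behind each value of Fdps.

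Members were compared between groups on log2(FPKM + 1) with limma over the 15069 genes whose FPKM averaged 0.5 or more, a filter that 7 members passed and Fdps did not. No member had an adjusted p under 0.05, and neither had any other tested gene (0%). At an unadjusted p under 0.05, 1 of the 7 was higher in anti-PD-1 tumors, where 6.22% of all tested genes were, and none was lower, where 6.05% were (12.3% in both directions). The mean log2(FPKM + 1), on which all counts of higher and lower means rest, was higher in anti-PD-1 tumors for 6 of the 7, against 50.8% of all tested genes. The groups did not overlap for 1 of the 7, with anti-PD-1 higher, as for 9.3% of all tested genes. None of the 7 had non-overlapping groups with anti-PD-1 lower, as 8.75% of all tested genes had. The 7 had a median log2 fold change of 0.21, and the tested genes as a whole 0.01. With 3 tumors per group, the smallest p that an exact permutation test allows is 0.1. In bulk tumor RNA, a change in the share of cells that express a gene and a change in RNA per cell cannot be told apart.

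**Figure D1:**
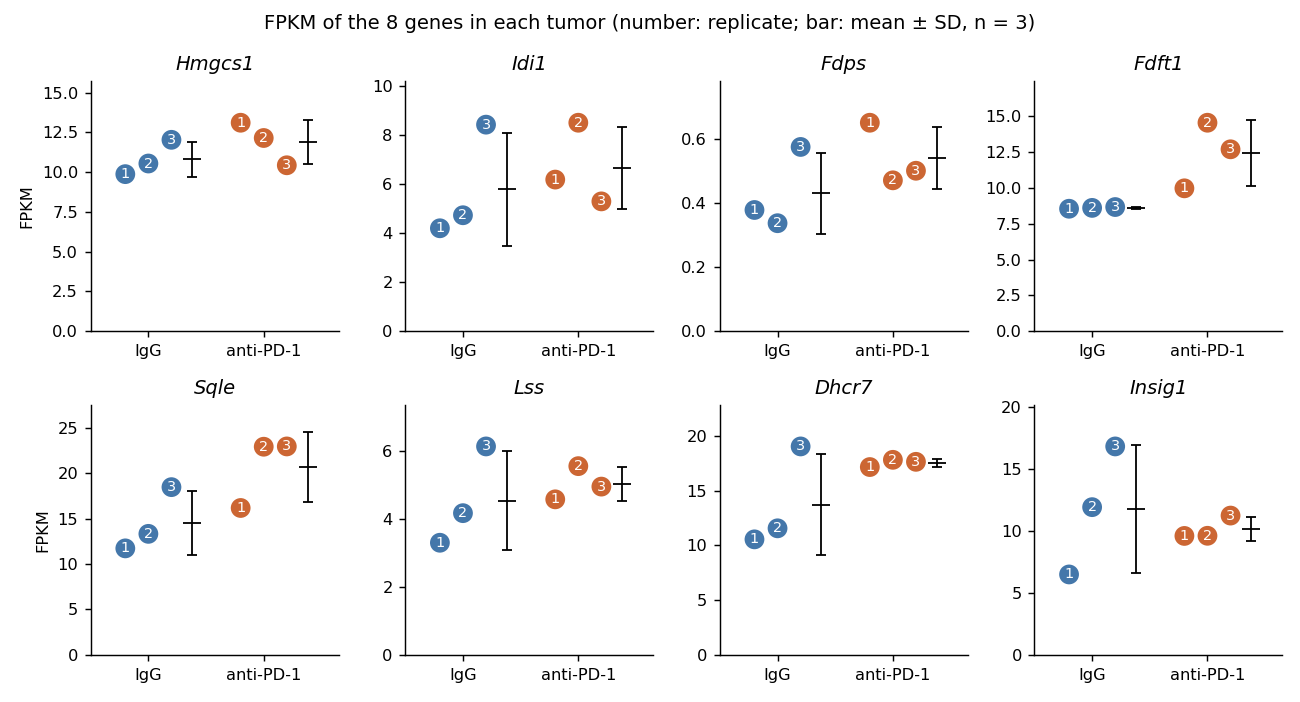
FPKM (y axes, starting at 0, scaled for each gene) of the 8 members in each tumor, with the replicate number inside each point, IgG in blue and anti-PD-1 in orange, and mean ± SD (n = 3) beside the points. Fdft1 is the member with no overlap between the groups, and IgG replicate 3 is the highest IgG tumor in all 8 panels.

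The enzymes of the mevalonate and isoprenoid part of the pathway differed by less than the spread between tumors. Hmgcs1 (ENSMUSG00000093930, chr13:119690379-119708260, plus strand) encodes the cytosolic enzyme that forms HMG-CoA. In the order of the replicate numbers, which is kept throughout, the IgG tumors had 9.88, 10.5 and 12.0 FPKM and the anti-PD-1 tumors 13.1, 12.2 and 10.4. The groups overlapped, with anti-PD-1 replicate 3 below IgG replicates 2 and 3. The difference came to a log2 fold change of 0.13 (standard error 0.16, 95% confidence interval -0.24 to 0.50, limma adjusted p = 0.765), and the exact permutation p was 0.3. Without 1 tumor its log2 fold change ran from 0.06 (anti-PD-1 replicate 1 left out) to 0.22 (anti-PD-1 replicate 3 left out).

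Idi1 (ENSMUSG00000058258, chr13:8885501-8892451, plus strand), the isomerase that makes dimethylallyl diphosphate, had 4.20, 4.73 and 8.43 FPKM in the IgG tumors and 6.19, 8.51 and 5.30 in the anti-PD-1 tumors. IgG replicate 3 was thus level with the highest anti-PD-1 tumor, while the other IgG tumors lay below all 3 anti-PD-1 tumors. The log2 fold change of 0.21 (standard error 0.27, interval -0.43 to 0.85, limma adjusted p = 0.783) was 0.47 without IgG replicate 3 and 0.04 without IgG replicate 1. Reads of Idi1 can be shared with 2 processed pseudogenes elsewhere in the genome, the nearer of which (Gm13502) is identical over 684 bases and was at or below 0.359 FPKM.

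Fdps (ENSMUSG00000059743, chr3:89093588-89101959, minus strand) encodes farnesyl diphosphate synthase, which supplies both sterols and protein prenylation. It had 0.378, 0.337 and 0.574 FPKM in the IgG tumors and 0.650, 0.470 and 0.5002 in the anti-PD-1 tumors. The groups overlapped through IgG replicate 3, and without the filter the log2 fold change was 0.11 (standard error 0.13, limma adjusted p = 0.782). Fdps shares 1124 of its 4208 exon bases (26.7%) with Gm43738 on the same strand, a gene listed at 0 in all 6 tumors, and it has 4 copies elsewhere with at least 95% identity over at least 300 bases. Among these copies Gm3571 had 0.590 FPKM in IgG replicate 2, above the 0.337 of Fdps there, and at most 0.079 in the other tumors. The authors counted with RSEM, which divides reads that match several genes by estimation, whereas the FPKM of Fdps correspond to whole reads in all 6 tumors. How the FPKM were made, and so how shared reads entered them, is not given in the sources used here, and the level of Fdps is uncertain.

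For the squalene and sterol enzymes Fdft1, Sqle, Lss and Dhcr7 the median log2 fold change was 0.43. Fdft1 (ENSMUSG00000021273, chr14:63145150-63179578, minus strand) encodes squalene synthase, the first enzyme committed to sterols. Its FPKM was 8.56, 8.62 and 8.67 in the IgG tumors and 9.98, 14.6 and 12.7 in the anti-PD-1 tumors. All 3 anti-PD-1 tumors were above all 3 IgG tumors, which lay within 1.01-fold of one another, while the anti-PD-1 tumors spread over 1.46-fold. The SD of the 3 IgG values was 0.0081 on the log2 scale, below the 0.044 that counting error alone gives at their read numbers. This was a log2 fold change of 0.47 (standard error 0.17, interval 0.07 to 0.87), a 1.39-fold difference on the scale of FPKM + 1 with an unadjusted p of 0.0274, a limma adjusted p of 0.370 and an exact permutation p of 0.1. On leaving out 1 tumor at a time the log2 fold change ran from 0.36 to 0.61, and the unadjusted limma p from 0.0519 to 0.0908 for each tumor except anti-PD-1 replicate 1, without which it was 0.0107.

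The 3′ exons of Fdft1 overlap those of Ctsb, which encodes the lysosomal protease cathepsin B on the opposite strand, over 774 bases or 18.3% of the exon length of Fdft1. Ctsb was the far more abundant of the pair, with 165, 157 and 109 FPKM in the IgG tumors and 138, 188 and 164 in the anti-PD-1 tumors. Anti-PD-1 replicate 2 was the highest tumor for both genes, but Ctsb overlapped between the groups and differed by a log2 fold change of 0.20 (limma adjusted p = 0.748). Whether the counting used strand is not given in the sources used here, so that reads of the pair may not be separate.

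Sqle (ENSMUSG00000022351, chr15:59315077-59331192, plus strand) encodes squalene epoxidase, an oxygen-dependent step and a point of control of the pathway. It had 11.7, 13.3 and 18.5 FPKM in the IgG tumors and 16.2, 22.9 and 22.9 in the anti-PD-1 tumors. The groups overlapped only because IgG replicate 3 exceeded anti-PD-1 replicate 1. Of the members, Sqle had the largest log2 fold change at 0.49 (standard error 0.22, interval -0.03 to 1.02, unadjusted p = 0.0596, limma adjusted p = 0.421, exact permutation p = 0.2). The unadjusted limma p was 0.0175 without IgG replicate 3, 0.0275 without anti-PD-1 replicate 1 and 0.143 to 0.176 without any other tumor. Genes of chromosome 15, on which Sqle lies, had a median log2 fold change 0.16 above that of all tested genes, and its part in the value of Sqle was not tested.

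Lss (ENSMUSG00000033105, chr10:76531588-76557138, plus strand) encodes lanosterol synthase, which closes the sterol rings. Its FPKM was 3.30, 4.17 and 6.13 in the IgG tumors and 4.57, 5.55 and 4.95 in the anti-PD-1 tumors, so that the IgG group held both the lowest and the highest tumor. Its log2 fold change was 0.16 (standard error 0.22, interval -0.35 to 0.67, limma adjusted p = 0.799), and it was -0.01 without IgG replicate 1.

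Dhcr7 (ENSMUSG00000058454, chr7:143823145-143848410, plus strand) encodes the last reductase of a main branch to cholesterol, the enzyme deficient in Smith-Lemli-Opitz syndrome. Its FPKM was 10.6, 11.6 and 19.1 in the IgG tumors and 17.2, 17.8 and 17.6 in the anti-PD-1 tumors. The anti-PD-1 tumors lay within 1.04-fold of one another, above IgG replicates 1 and 2 but below IgG replicate 3. The log2 fold change of 0.38 (standard error 0.23, interval -0.15 to 0.91, limma adjusted p = 0.519) was 0.23 without IgG replicate 1 and 0.63 without IgG replicate 3, where the unadjusted limma p was 0.00510 and the adjusted p 0.483.

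Insig1 (ENSMUSG00000045294, chr5:28071363-28078662, plus strand) was the member with a lower mean in anti-PD-1 tumors. It had 6.49, 11.9 and 16.8 FPKM in the IgG tumors and 9.60, 9.61 and 11.2 in the anti-PD-1 tumors. The anti-PD-1 tumors all lay between the lowest IgG tumor and the next, and the IgG tumors spread over 2.59-fold, the widest of the members within a group. Its log2 fold change was -0.10 (standard error 0.31, interval -0.82 to 0.61, limma adjusted p = 0.911). It was 0.18 without IgG replicate 3 and -0.44 without IgG replicate 1.

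The IgG tumors were ordered similarly in most members. IgG replicate 3 was the highest IgG tumor for 8 of 8 members, although the order was not resolved for Fdft1, whose IgG values differed by less than counting error, whereas over all tested genes it was the highest of its group for 34.8%. IgG replicate 1 was the lowest of all 6 tumors for 7 of 8 members, and IgG replicate 2 was the lowest for Fdps. Within its group IgG replicate 1 was the lowest for 7 of 8 members, against 32.2% of all tested genes. Of 19 tested cholesterol synthesis enzymes, 6 of them members, IgG replicate 3 was the highest IgG tumor for 15, IgG replicate 2 for 4 and IgG replicate 1 for none. Averaged over the 7 tested members and set against their mean over 6 tumors, the log2 level was -0.41, -0.19 and 0.23 in the IgG tumors. It was 0.02, 0.24 and 0.11 in the anti-PD-1 tumors, so that IgG replicate 3 stood at the level of the anti-PD-1 tumors. The SD of the log2 level was larger in the IgG group for 5 of the 7 tested members (Fdft1 and Hmgcs1 were the exceptions), as it was for 55.6% of all tested genes.

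**Figure D2:**
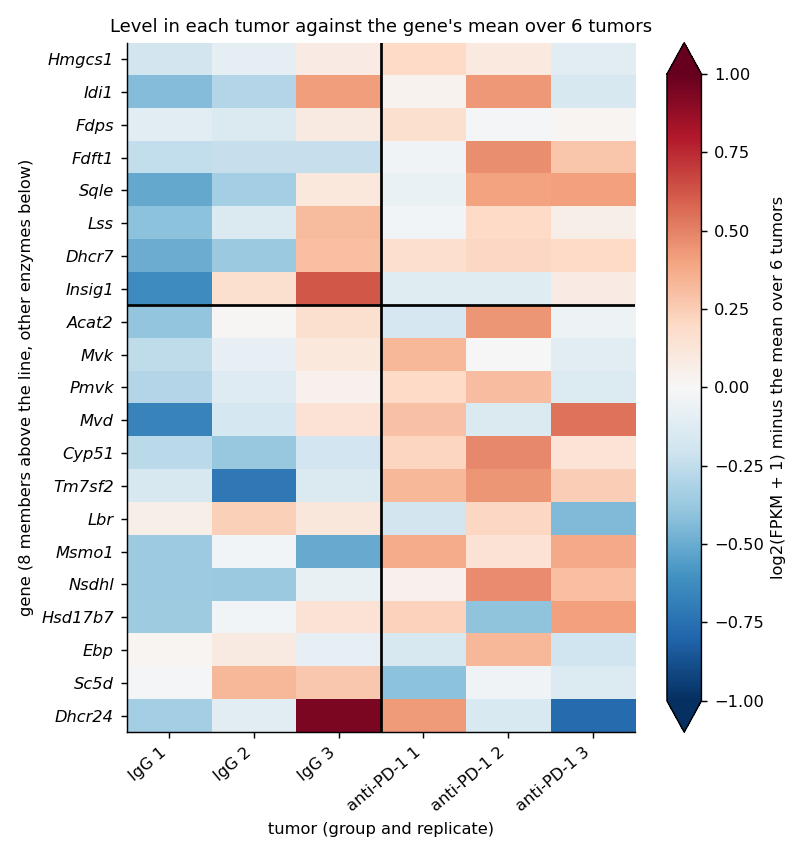
Level of each gene in each tumor as log2(FPKM + 1) minus the gene's mean over the 6 tumors (color, red above and blue below the mean), with the 8 members above the line and 13 other cholesterol synthesis enzymes below it. The column of IgG replicate 1 is blue for all 8 members, and the column of IgG replicate 3 is red for 7 of them, Fdft1 being the exception.

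Beside the members, 13 other enzymes of cholesterol synthesis are reported. Of these, 9 had a higher and 4 a lower mean in anti-PD-1 tumors, and their median log2 fold change was 0.16. At an unadjusted p under 0.05, 4 were higher and none lower, where 6.22% of all tested genes were higher and 6.05% lower, and none had a limma adjusted p under 0.05. The 4 act downstream of Lss, as do Lbr, a second reductase for the step of Tm7sf2 (log2 fold change -0.28, limma adjusted p = 0.595), and Hsd17b7, which acts with Msmo1 and Nsdhl (log2 fold change 0.16, limma adjusted p = 0.830). Cyp51, the lanosterol demethylase, had 9.57 ± 0.697 FPKM (SD, n = 3) in the IgG tumors and 14.6 ± 2.004 in the anti-PD-1 tumors, a log2 fold change of 0.56 (limma adjusted p = 0.344). Msmo1, a sterol methyl oxidase, had 4.43 ± 0.955 and 7.14 ± 0.711 FPKM, a log2 fold change of 0.60 (limma adjusted p = 0.350). Nsdhl, which acts after Msmo1 in the same demethylation, had 10.2 ± 1.36 and 15.2 ± 2.41 FPKM, a log2 fold change of 0.54 (limma adjusted p = 0.355). Tm7sf2, a sterol reductase, had 1.42 ± 0.510 and 2.82 ± 0.270 FPKM, a log2 fold change of 0.68 (limma adjusted p = 0.355), and it shares 532 exon bases with Vps51 on the same strand. In all 4 the anti-PD-1 tumors lay above all IgG tumors, as for 9.3% of all tested genes. Sc5d, a desaturase acting just before Dhcr7, had lower FPKM in all 3 anti-PD-1 tumors than in all 3 IgG tumors, 7.12 ± 1.07 against 9.64 ± 1.34 (log2 fold change -0.39, limma adjusted p = 0.430). Sc5d lies on chromosome 9, whose genes had a median log2 fold change 0.36 below that of all tested genes, and no member lies on chromosome 9 or on chromosome 4, where the shift was -0.41.

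**Figure D3:**
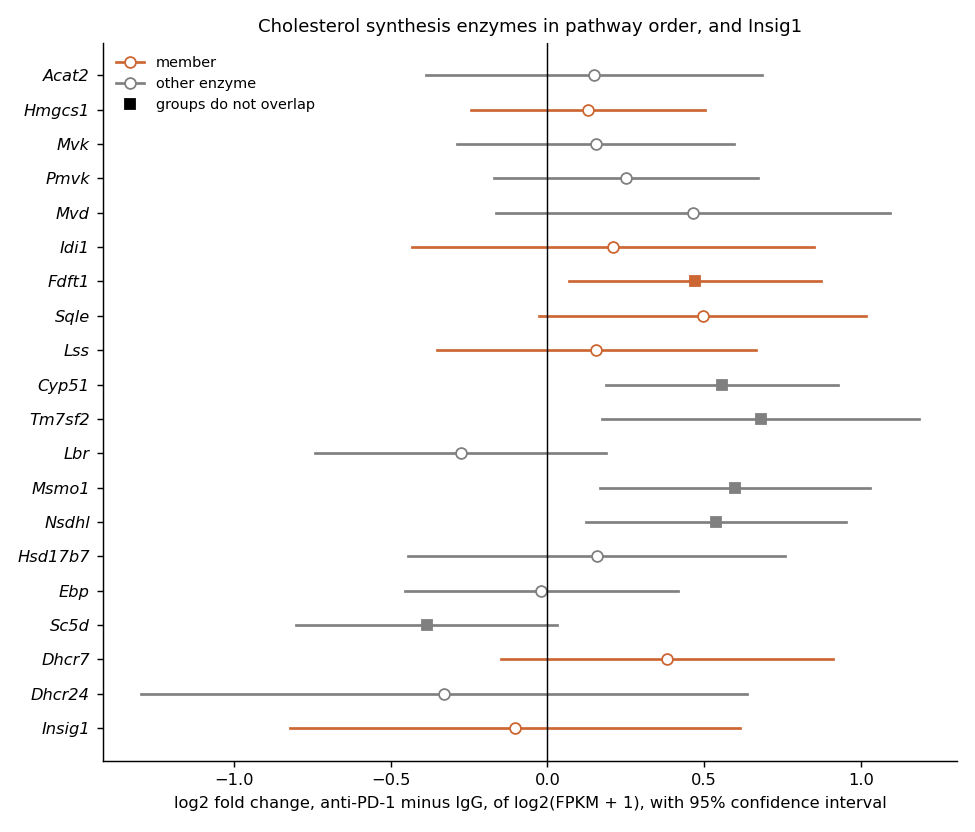
Log2 fold change of log2(FPKM + 1), anti-PD-1 minus IgG (x axis), with its 95% confidence interval for the tested enzymes reported here in pathway order and for Insig1 (y axis), members in orange and other enzymes in gray, filled squares where the groups do not overlap. The intervals of Fdft1, Cyp51, Tm7sf2, Msmo1 and Nsdhl lie above 0, before any adjustment for the number of genes.

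The regulators of SREBP were mixed in direction. Of 14 tested, 6 had a higher and 8 a lower mean in anti-PD-1 tumors, none had an unadjusted p under 0.05, where 12.3% of all tested genes had, and the median log2 fold change was -0.09. Erlin2, which takes part in the degradation of sterol-regulated proteins, was the only one whose groups did not overlap, at 25.4 ± 1.11 FPKM in anti-PD-1 and 31.0 ± 1.33 in IgG tumors (log2 fold change -0.27, limma adjusted p = 0.449), and this count of 1 in 14 is near the 8.75% of all tested genes that were lower without overlap.

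Of 13 genes of sterol uptake and trafficking reported here, 4 had a higher and 9 a lower mean in anti-PD-1 tumors, and the median was -0.12. Stard3, which moves sterol between membranes of late endosomes and the endoplasmic reticulum, had 23.7 ± 3.62 FPKM in anti-PD-1 and 14.8 ± 3.06 in IgG tumors (log2 fold change 0.65, limma adjusted p = 0.347). Stard3 lies near Erbb2 on chromosome 11. The other window among the listed genes that held the sterol response element was that of Stard3. Stard5 (log2 fold change -0.48, limma adjusted p = 0.407) and the lysosomal sterol exporter Npc1 (log2 fold change -0.41, limma adjusted p = 0.423) were lower in all 3 anti-PD-1 tumors than in all 3 IgG tumors, as for 8.75% of all tested genes. Stard5 shares 1202 exon bases with Il16 on the opposite strand, and its log2 fold change was -0.30 without IgG replicate 3.

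**Figure D4:**
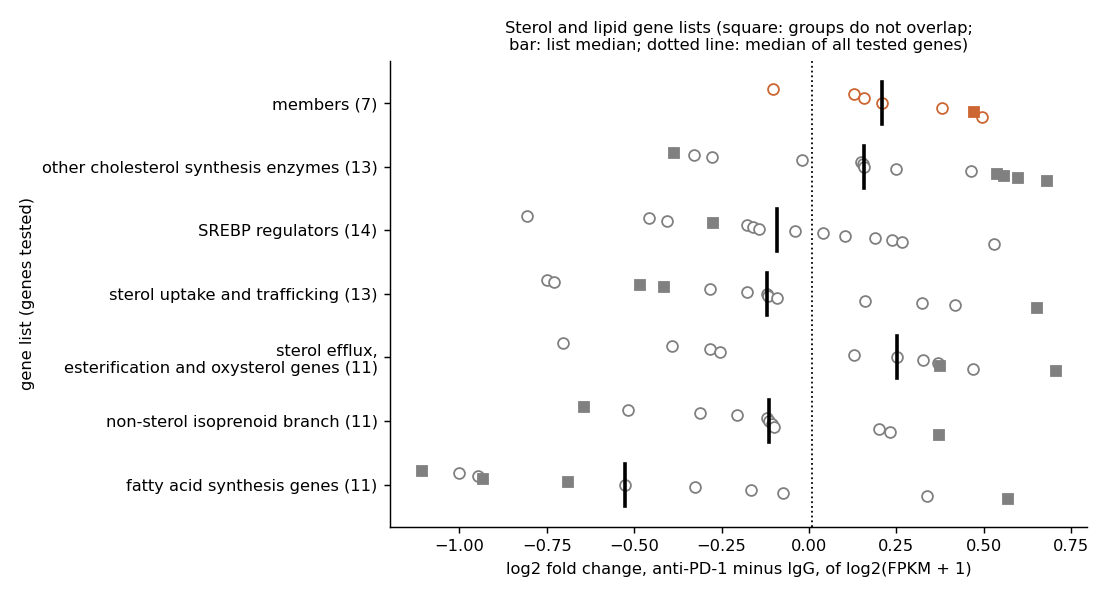
Log2 fold change of log2(FPKM + 1), anti-PD-1 minus IgG (x axis), of the tested genes reported here in 7 lists (y axis, number tested in parentheses), each point a gene, filled squares where the groups do not overlap, bars at the list medians and a dotted line at the median of all tested genes. The medians of the members (0.21) and of the other cholesterol synthesis enzymes (0.16) lie to the right of the dotted line. So does that of the efflux, esterification and oxysterol genes (0.25). The medians of the other lists lie to the left, that of the fatty acid synthesis genes furthest (-0.53).

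Depth and cell types were set beside the members. The reads recovered from the FPKM came to between 21065845 and 23843887 per tumor, and IgG replicate 1, the lowest tumor for most members, was also the one with the fewest. The tissue label fit its markers, since all 8 luminal epithelial markers were detected, and their summed FPKM was 3124 to 4016 in anti-PD-1 and 2189 to 3068 in IgG tumors, without overlap. IgG replicate 3 had the lowest luminal sum of the 6 tumors, while its members were at the level of the anti-PD-1 tumors. Of the 8 luminal markers, 6 had a higher mean in anti-PD-1 tumors and 2 a lower one, Cdh1 and Krt19. The log2 fold change was -0.34 for Cdh1 and -2.03 for Krt19, and without IgG replicate 2 it was -0.16 and -0.97. Myoepithelial markers summed to 5.43 to 6.78 FPKM in anti-PD-1 and 7.90 to 13.3 in IgG tumors, also without overlap. The 5 endothelial markers all had a lower mean in anti-PD-1 tumors, with sums of 9.37 to 17.2 and 14.0 to 20.3 FPKM that overlapped. Skeletal muscle markers summed to 136, 74.8 and 148 FPKM in IgG replicate 2 and anti-PD-1 replicates 1 and 2 and to between 0.612 and 5.31 in the other tumors. Adipocyte markers, which mark cells rich in sterol and lipid genes, summed to 3.85 to 9.17 FPKM in anti-PD-1 and 5.82 to 10.8 in IgG tumors, and 2 of the 8 passed the filter. Markers of secretory mammary epithelium, the milk protein genes, summed to 1765 to 3837 and 2885 to 7210 FPKM, and 6 of 6 had a lower mean in anti-PD-1 tumors (median log2 fold change -0.63). Hepatocyte markers summed to 8.39 and 3.23 FPKM in IgG replicates 2 and 3 and to between 0.16 and 0.33 in the other tumors. Sums of fibroblast (92.6 to 344 and 80.9 to 240), lymphocyte (0.57 to 1.91 and 0.81 to 5.04) and sebaceous gland markers (240 to 444 and 141 to 493) overlapped between the groups. Of the 5 sebaceous gland markers, Mgst1 made up nearly all of the sum, at 140 to 493 FPKM. Another 2 were at 0 in every tumor, and the rest were at or below 0.526 FPKM. Macrophage markers summed to 586 to 878 and 396 to 871 FPKM. On the log2(FPKM + 1) scale 8 of 8 averaged higher in anti-PD-1 tumors, from a log2 fold change of 0.005 for Adgre1 (limma adjusted p = 0.994) to 0.76 for Cd68. Of the 8, only Cd68 had groups that did not overlap, as for 9.3% of all tested genes. It had 27.4 ± 4.59 FPKM (SD, n = 3) against 15.8 ± 2.27 (limma unadjusted p = 0.00438, adjusted p = 0.344). Markers of proliferation summed to 63.8 to 122 and 61.3 to 103 FPKM. The part of these cell types in the values of the members was not tested.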

How the data were processed

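Each of the 6 tumors, 3 per group, has a table of 54532 Ensembl gene IDs with FPKM as deposited by the authors. Per the labels and the methods, reads were checked with FastQC 0.11.9, trimmed with cutadapt 3.5, and aligned and counted with RSEM 1.3.1 on an Ensembl mm10 reference indexed with Bowtie2 2.4.1, and counts were tested by the authors in DESeq2 1.36.0. How FPKM was made from the counts is not given in the sources used here. GENCODE release M21 (GRCm38) gave symbols, positions and merged exon lengths for 54409 IDs. FPKM times exon length gave whole reads (within 0.1) in all tumors for 27844 of the 28732 IDs above 0, and these reads gave the depth.

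Values were scaled by median-of-ratios factors and compared as log2(FPKM + 1), which makes fold changes of weakly expressed genes too small. The 15069 genes whose FPKM averaged 0.5 or more entered limma 3.58.1 under R 4.3.3 (eBayes with a trend, two-sided, Benjamini-Hochberg over all tested genes). Single genes also had a two-sided exact permutation test. The fit was tested on simulated data for anti-PD-1 against IgG with 14215 genes. Of the 193 genes changed by a log2 fold of 2, 191 were recovered (99.0%), with 21 false calls. Recovery at the smaller log2 fold changes of the tested members, from -0.10 to 0.49, was not tested. Copies of the members were searched with blastn 2.17.0. Python 3.11.15 was used with pandas 2.3.3, numpy 2.4.6, scipy 1.17.1 and matplotlib 3.10.9.

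The members and lists were chosen with earlier results of these data known. All 8 members are named. In the other lists the genes named had an unadjusted p under 0.05 or groups that did not overlap, up to 6 per list. Lbr and Hsd17b7 are named as enzymes acting at the steps of named ones, and Krt19 and Cdh1 as the luminal markers with a lower mean. Among macrophage markers, Cd68 is named for its groups without overlap and Adgre1 for the smallest log2 fold change. Mgst1 is named for its share of the sebaceous gland sum. Ctsb, Gm13502, Gm3571, Gm43738, Vps51 and Il16 are named for shared sequence. All of these were named after their values were seen. Of the listed genes, 4 are not reported here and are left out of all counts. Of these, 2 met the rule for naming, so some counts over the lists lack a gene that met it. Alternatives were another pseudocount, other filters, FPKM as deposited, quantile normalization, no trend, a replicate block, voom on recovered reads, and leaving out each tumor.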

Additional observations from a re-analysis of the deposited data

How the results depend on the processing

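Over 14 alternatives for each tested member, the direction was kept except for Lss without IgG replicate 1 and Insig1 without IgG replicate 3. Without 1 tumor the log2 fold change of Lss ran from -0.010 to 0.35 and that of Insig1 from -0.44 to 0.18. With one tumor left out at a time, the number of members higher at an unadjusted p under 0.05 ran from 0 to 2, their number with a higher mean from 5 to 7, and their median log2 fold change from 0.071 to 0.47. Over the same fits, all tested genes gave 498 to 1268 higher and 459 to 1419 lower at an unadjusted p under 0.05 and 0 to 12 at an adjusted p under 0.05, and the other cholesterol synthesis enzymes gave 3 to 4 higher and 0 to 1 lower. Voom on the recovered reads gave 1 tested gene with an adjusted p under 0.05. The labels do not say whether the replicate numbers pair the tumors. The deviations of same-numbered tumors correlated at -0.16, 0.01 and 0.19, which cannot settle it. With the replicate number as a block, 2 members were higher at an unadjusted p under 0.05, the second being Sqle (limma unadjusted p = 0.0331). The causes were not tested.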

Other observations

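The fatty acid synthesis genes, which SREBP also regulates, were followed in the same tumors. Of 11 tested, 2 had a higher and 9 a lower mean in anti-PD-1 tumors, and the median log2 fold change was -0.53. The desaturase Fads2 had 20.99 ± 3.88 FPKM (SD, n = 3) in anti-PD-1 and 43.2 ± 19.3 in IgG tumors (log2 fold change -0.93, limma adjusted p = 0.355), and its neighbor Fads1 4.88 ± 1.80 and 12.8 ± 8.34 (-1.11, limma adjusted p = 0.376). Without IgG replicate 2 these became -0.60 for Fads2 and -0.65 for Fads1. The elongase Elovl6 had 4.94 ± 0.718 and 8.75 ± 2.27 FPKM (-0.69, limma adjusted p = 0.355). Me1, a source of NADPH, was in the other direction with 107.6 ± 6.43 and 73.9 ± 18.1 FPKM (0.57, limma adjusted p = 0.370). The groups did not overlap for these 4 of the 11, which were named for that or for their p, where 9.3% of all tested genes were higher without overlap and 8.75% lower. The mean log2 level of this list, set against its mean over 6 tumors, was -0.15, 0.59 and 0.22 in the 3 IgG tumors in replicate order, where it was -0.41, -0.19 and 0.23 for the 7 tested members. By gene, IgG replicate 2 and IgG replicate 3 were each the highest IgG tumor for 5 of the 11. The difference between the lists was not tested. The summed FPKM of secretory mammary epithelium markers was also highest in IgG replicate 2 (7210, against 3451 and 2885 in IgG replicates 1 and 3 and 1765 to 3837 in anti-PD-1 tumors), and hepatocyte markers summed to 0.16, 8.39 and 3.23 FPKM in the IgG tumors. The part of these cells in the fatty acid genes was not tested.

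Of 11 tested genes of sterol efflux, esterification and oxysterols, 7 had a higher and 4 a lower mean in anti-PD-1 tumors (median 0.25). The groups did not overlap for Nr1h2, a liver X receptor (log2 fold change 0.38, limma adjusted p = 0.409), and Cyp7b1, an oxysterol hydroxylase (0.71, limma adjusted p = 0.385), 2 of the 11 beside 9.3% of all tested genes. Of 11 tested genes of the non-sterol isoprenoid branch, 3 had a higher and 8 a lower mean (median -0.12). Zmpste24, a protease that processes prenylated lamin A and lies on chromosome 4, had a log2 fold change of -0.64 (limma adjusted p = 0.372), and Nus1, a subunit of the dolichol-making prenyltransferase, one of 0.37 (limma adjusted p = 0.434). Among 7960 other genes averaging 5 FPKM or more, those whose log2 profile over the 6 tumors lay nearest to the mean profile of the members were Prmt5, Phc1, Eif2b4, Dtd1, Dcps, Slc35a2, Iars and Mccc2, with root mean square differences from 0.0699 for Prmt5 to 0.0996 for Mccc2. With 6 tumors and this many genes, such likeness is a description.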
